A study of Mus musculus with 6 samples.

Results

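Genes of the mouse major histocompatibility complex, named H2, and genes that serve antigen presentation were examined in first molar tooth germs lacking the adhesion G protein-coupled receptor Gpr115, listed under its current symbol Adgrf4. Members were all genes of the deposited normalized table whose symbol starts with H2-, together with 17 genes taken by name. The named genes were presentation genes and the antisense transcript BC023719. This gave 38 of the table's 20161 genes. Of these, 27 lie within the H2 complex on chromosome 17 and 11 on other chromosomes. RNA was sequenced from 3 libraries of Gpr115-deficient mice (Gpr115-/-, here Gpr115-KO) and 3 libraries of their wild-type (WT) littermates, all C57BL/6 and at postnatal day 7, with no treatment. Germs of this age hold enamel-forming epithelium, dentin-forming cells, pulp and vessels. The labels give neither the deleted part of Gpr115, nor the cells from which the line was made, nor whether each library came from a single animal. The p-values therefore reflect variation among the 6 libraries, part of which may be technical.

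Class I molecules pair a heavy chain with beta-2-microglobulin and show peptides from the cell's own cytosol to CD8 T cells. The peptides are cut by the proteasome, pumped into the endoplasmic reticulum by the transporter made from Tap1 and Tap2, and loaded with the help of tapasin. The classical (class Ia) heavy chains are widely expressed and highly polymorphic, while the class Ib chains of the Q, T and M regions are less variable and several have specialised ligands. Class II molecules are made mainly by B cells, dendritic cells and macrophages and present peptides from endosomes, with the invariant chain Cd74 and the exchange factor H2-DM controlling what they hold.

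Library totals ran from 8317302 to 11122821 counts, so that 1 count was worth 0.0907 to 0.114 CPM (counts per 1000000, scaled by edgeR's TMM factors), and a count of 0 in 1 library left room for 0.272 to 0.342 CPM by counting error alone. The enamel genes Amelx, Ambn and Enam were at 7911 to 140561 CPM in the 6 libraries, as tooth germ is labelled. Adgrf4 had 39.2, 20.6 and 27.5 CPM in Gpr115-KO, against 67.1, 62.5 and 67.5 CPM in WT (log2 fold change −1.18, SE 0.21, edgeR adjusted p = 0.0887). It lies on chromosome 17 (42656891 to 42692284, minus strand), as the H2 complex does. Of the 38 members 31 passed the count filter and were tested, 20 in the H2 complex and all 11 elsewhere. A further 24 symbols of the rule were listed in the count table but not in the normalized table; 10 of them had 0 counts in every library and none exceeded 5 counts.

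The promoters of 6 members whose log2 fold changes had different signs are shown first, to be read beside the levels that follow; of these, H2-D1 and H2-T23 passed the test given below and the other 4 did not. Sequences are RefSeq's for GRCm38.p6, of which entries for 26 of the 38 members were used. Cd74 was left out of the members searched. H2-T24, H2-T10 and BC023719 are among those named only. Each sequence is the stretch of 250 bases before RefSeq's start of the gene, on the gene's own strand, 5′ to 3′. RefSeq's starts differ from those of the GENCODE gene spans given with the levels: the windows of H2-D1 and H2-DMb2 lie wholly within those spans, and those of H2-T23, H2-DMb1 and H2-T22 overlap them by 154, 119 and 5 bases. Capitals mark textbook class I and class II promoter motifs, on either strand: a kappa B core (GGGATTCCC), an interferon element core (TTTCNNTTC), an X2 box core (TGACGC) and a Y box (ATTGG).
H2-K1 (chr17:34000348-34000597, minus strand): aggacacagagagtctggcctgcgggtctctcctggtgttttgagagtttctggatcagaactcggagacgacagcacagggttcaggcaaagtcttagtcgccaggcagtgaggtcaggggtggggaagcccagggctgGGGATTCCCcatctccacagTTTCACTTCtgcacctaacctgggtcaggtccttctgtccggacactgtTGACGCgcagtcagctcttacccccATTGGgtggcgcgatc
H2-D1 (chr17:35262844-35263093, plus strand): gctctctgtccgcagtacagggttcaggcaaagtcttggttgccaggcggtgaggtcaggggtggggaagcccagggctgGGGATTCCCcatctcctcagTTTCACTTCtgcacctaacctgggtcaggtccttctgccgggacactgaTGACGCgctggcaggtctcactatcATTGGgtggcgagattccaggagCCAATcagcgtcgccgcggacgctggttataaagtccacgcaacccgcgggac
H2-T23 (chr17:36032702-36032951, minus strand): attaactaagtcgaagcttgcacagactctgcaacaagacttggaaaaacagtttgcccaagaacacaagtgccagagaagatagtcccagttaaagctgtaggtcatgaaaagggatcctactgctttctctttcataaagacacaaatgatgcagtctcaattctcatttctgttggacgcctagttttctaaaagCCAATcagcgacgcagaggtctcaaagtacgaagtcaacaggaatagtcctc
H2-T22 (chr17:36042743-36042992, minus strand): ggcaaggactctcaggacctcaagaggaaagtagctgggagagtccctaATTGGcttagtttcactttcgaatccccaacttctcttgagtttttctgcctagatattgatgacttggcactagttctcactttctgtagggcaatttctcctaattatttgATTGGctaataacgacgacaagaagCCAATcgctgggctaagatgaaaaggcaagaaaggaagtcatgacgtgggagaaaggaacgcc
H2-DMb1 (chr17:34152941-34153190, plus strand): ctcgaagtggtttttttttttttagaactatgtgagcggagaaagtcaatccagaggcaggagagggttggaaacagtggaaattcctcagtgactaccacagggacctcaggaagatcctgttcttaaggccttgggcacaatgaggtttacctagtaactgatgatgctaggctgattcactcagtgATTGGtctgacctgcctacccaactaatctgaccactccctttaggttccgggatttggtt
H2-DMb2 (chr17:34144999-34145248, plus strand): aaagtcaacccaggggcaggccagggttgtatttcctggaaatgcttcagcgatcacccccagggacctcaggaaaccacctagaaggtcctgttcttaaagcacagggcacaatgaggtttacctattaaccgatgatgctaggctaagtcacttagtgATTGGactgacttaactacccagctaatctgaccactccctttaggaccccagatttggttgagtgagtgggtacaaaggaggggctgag

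The promoters of H2-K1 and H2-D1 both held all 4 motifs, in the same order. Over all 32851 promoters in the table, 0.301% held the kappa B core, 6.31% the interferon element core, 6.12% the X2 box core and 33.8% the Y box, and 0.103% held at least 3 of the 4. H2-T23, H2-T22, H2-DMb1 and H2-DMb2 held the Y box alone of these exact letters. H2-T22 also holds tttcactttc, a close variant of the interferon element core that the search did not count. Of the 20 members of the H2 complex with an entry 17 held a Y box, 5 the interferon core, 3 the X2 core and 2 the kappa B core. Of the 6 entries on other chromosomes 1 held a Y box and 1 the X2 core. The entry of B2m also holds gaaactgaaa and gggaaagtccc, close variants of the interferon element and kappa B cores that were not counted. The counts in both sets thus depend on the exact letters searched for. In end-to-end alignments of these windows, H2-K1 and H2-D1 were identical at 170 of 310 columns (54.8%). H2-DMb1 and H2-DMb2 were identical at 174 of 291 columns (59.8%). Columns with gaps are counted in both totals, so these shares understate the identity of the bases that were paired. The windows are also offset, with the kappa B core 110 bases before the start in H2-K1 and 170 in H2-D1. The motif matches are descriptions of the letters and say nothing of binding in the tooth germ.

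In Gpr115-KO germs the class Ib genes H2-T24 and H2-T23 rose by 5.31-fold and 6.23-fold (ratio of mean CPM), while the class Ia gene H2-D1, the class I pseudogene H2-T10 and the antisense transcript BC023719 fell. No presentation gene on another chromosome passed the test. Thus 5 of the 20 tested members of the H2 complex were called at an edgeR adjusted p under 0.05, 2 of them higher and 3 lower in Gpr115-KO, and 0 of the 11 elsewhere. The lower calls of H2-T10 and BC023719, which overlap on opposite strands, are not separate observations. Both reached 10 counts in the WT libraries alone, so they passed the count filter through the genotype in which they were high. Among all 16011 genes tested 0.150% were called, 0.0375% higher and 0.112% lower. At an unadjusted p under 0.05, which 12.3% of all tested genes reached, there were 12 of 20 members in the complex and 1 of 11 elsewhere.

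**Figure D1:**
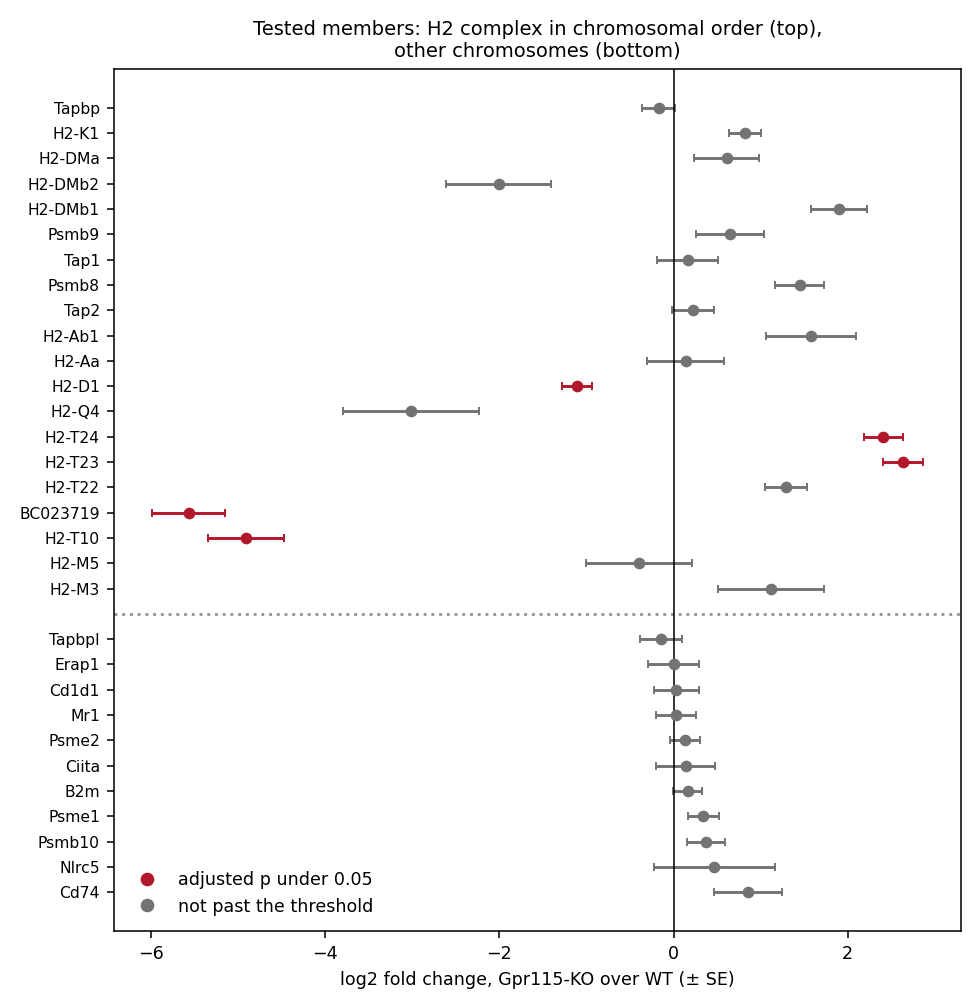
Log2 fold change of Gpr115-KO over WT with its standard error for the 31 tested members, the 20 of the H2 complex above in chromosomal order and the 11 on other chromosomes below. Red points passed an adjusted p of 0.05, and the values in the complex run from −5.57 to 2.63 while those elsewhere run from −0.14 to 0.86.

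H2-K1 and H2-D1, the classical heavy chains of this strain, differed in direction. H2-D1 (ENSMUSG00000073411; chromosome 17, 35262730 to 35267499 on GRCm38, plus strand) had 36.1, 44.6 and 38.9 CPM in Gpr115-KO, against 101, 85.4 and 70.7 CPM in WT. Every Gpr115-KO library lay below every WT library, with a ratio of means of 0.465. edgeR gave a log2 fold change of −1.11 (SE 0.17) at an adjusted p of 0.0401. The call did not survive when any single library other than WT replicate 3 was left out, giving edgeR adjusted p-values of 0.0776, 0.0537 and 0.144 without Gpr115-KO replicates 1, 2 and 3, and 0.170 and 0.180 without WT replicates 1 and 2. It was also lost on library totals alone (0.0886), with limma-voom (0.0692), without robust shrinkage (0.0555) and with limma-trend at a pseudocount of 0.1 (0.0522).

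H2-K1 (ENSMUSG00000061232; chromosome 17, 33996017 to 34000347, minus strand) had 19.3, 25.2 and 22.7 CPM in Gpr115-KO, against 12.5, 12.8 and 12.6 CPM in WT. The genotypes did not overlap and the WT libraries were almost level, but the log2 fold change of 0.82 (SE 0.18) was not past the threshold over all genes (edgeR adjusted p = 0.147). The DESeq2 Wald test, which called 0.406% of all genes higher, and edgeR without a count filter, which called 0.463%, did call it. H2-D1 was the more abundant of the pair in each library, with 1.88, 1.77 and 1.71 times the H2-K1 level in CPM in Gpr115-KO and 8.09, 6.65 and 5.61 times in WT. Per kilobase of exon, H2-D1 averaged 15.5 CPM in Gpr115-KO and 33.3 CPM in WT, and H2-K1 7.62 CPM in Gpr115-KO and 4.31 CPM in WT. Their summed level was 62.2 ± 7.23 CPM in Gpr115-KO and 98.4 ± 15.2 CPM in WT (SD, n = 3 each). Both transcripts share a stretch of 203 bases at 96.1% identity, and H2-D1 shares 284 bases at 95.4% with H2-T22. The positions of these stretches were not compared, so they may be the same bases. The sources used here do not say how reads matching several genes were counted.

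**Figure D2:**
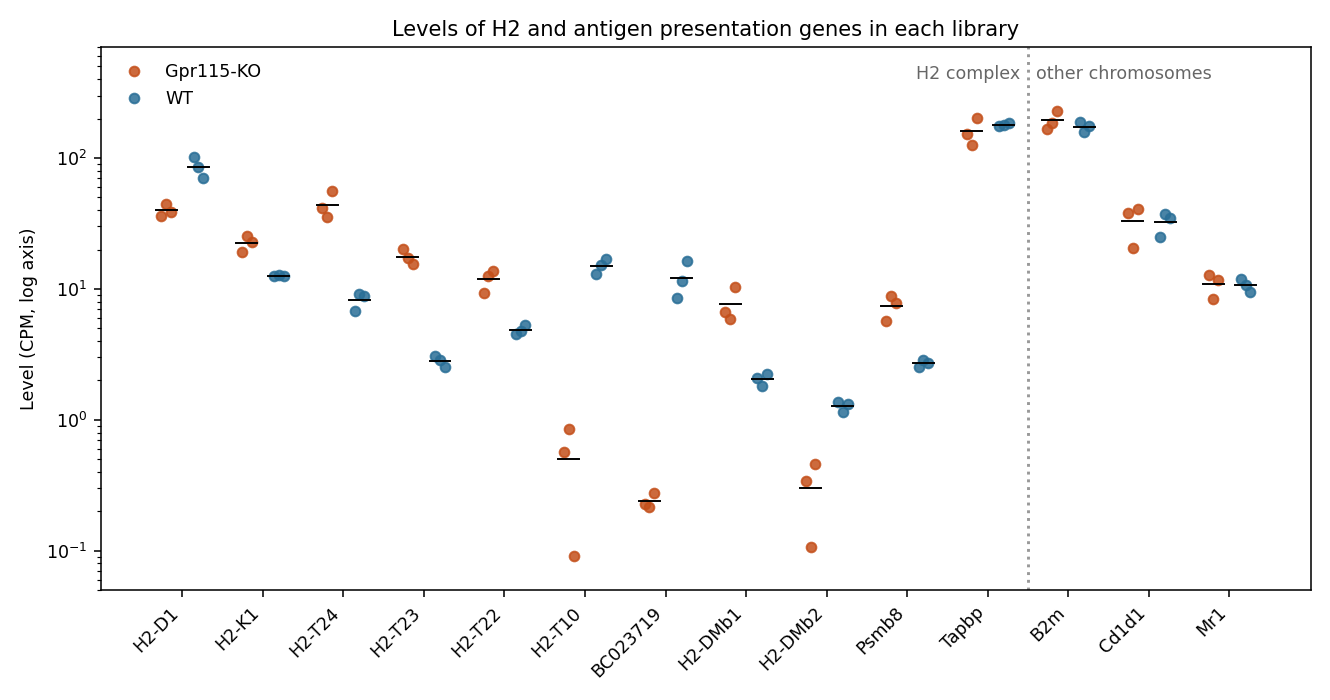
Level in CPM (log axis) of 14 members in each library, with Gpr115-KO left of WT for every gene and the mean as a bar; genes right of the dotted line are on other chromosomes. H2-T24 and H2-T23 are higher and H2-D1, H2-T10 and BC023719 lower in all 3 Gpr115-KO libraries, while Tapbp, B2m, Cd1d1 and Mr1 overlap.

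H2-T24 and H2-T23 are class Ib genes of the T region. H2-T24 (ENSMUSG00000053835; chromosome 17, 36005695 to 36020560, minus strand) had 41.2, 35.2 and 55.5 CPM in Gpr115-KO, against 6.80, 9.21 and 8.84 CPM in WT. H2-T23 (ENSMUSG00000067212; 36029773 to 36032855, minus strand) encodes the heavy chain of Qa-1, which carries a leader peptide of other class I chains to the natural killer cell receptor CD94/NKG2A. It had 20.1, 17.2 and 15.5 CPM in Gpr115-KO, against 3.08, 2.84 and 2.54 CPM in WT. For both genes the lowest Gpr115-KO library was well above the highest WT library. Their log2 fold changes were 2.41 (SE 0.22) and 2.63 (SE 0.23), each with an edgeR adjusted p of 0.000827, and both remained called under all 18 alternatives, with an adjusted p of at most 0.0129. H2-T24 had no transcript match on chromosome 17 at 95% identity over 150 bases. H2-T23 matches the pseudogene H2-T-ps at 95.6% over 1068 bases, but H2-T-ps held only 0, 2 and 0 counts in Gpr115-KO and 7, 7 and 4 in WT, and the pair's sum was 17.6 ± 2.31 CPM in Gpr115-KO and 3.43 ± 0.423 CPM in WT (SD, n = 3 each).

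The similar pair H2-T22 and H2-T10 ran in opposite directions. In mice both are known as ligands of gamma-delta T cell receptors that carry no peptide; in the annotation of this strain H2-T10 is a polymorphic pseudogene. H2-T10 (ENSMUSG00000079491; chromosome 17, 36115876 to 36121465, minus strand) had 0.570, 0.855 and 0.0915 CPM in Gpr115-KO, against 13.1, 15.3 and 16.8 CPM in WT. These were 5, 8 and 1 counts in Gpr115-KO, against 144, 135 and 165 in WT, and edgeR gave −4.91 (log2 fold change, SE 0.44) at an adjusted p of 0.000827. H2-T22 (ENSMUSG00000056116; 36037128 to 36042747, minus strand) had 9.23, 12.6 and 13.8 CPM in Gpr115-KO, against 4.53, 4.77 and 5.28 CPM in WT. All Gpr115-KO libraries were above all WT libraries, with a log2 fold change of 1.29 (SE 0.24) that did not pass over all genes (edgeR adjusted p = 0.0954) except in DESeq2 and without a count filter. The transcripts of both genes match at 96.4% identity over 1703 bases. Their sum was 9.80, 13.5 and 13.9 CPM in Gpr115-KO, against 17.6, 20.1 and 22.1 CPM in WT, so the summed level was also lower in each Gpr115-KO library.

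BC023719 (ENSMUSG00000092365; chromosome 17, 36111426 to 36117121, plus strand), an antisense transcript, shares 925 exonic bases with H2-T10 on the opposite strand, which is 94.6% of its exons. It had 2, 2 and 3 counts in Gpr115-KO, against 94, 100 and 159 in WT, or 0.239 ± 0.0317 CPM in Gpr115-KO and 12.0 ± 3.86 CPM in WT (SD, n = 3 each). The libraries lay far apart, and edgeR gave −5.57 (log2 fold change, SE 0.42) at an adjusted p of 0.000656. With limma-trend on log2 of the deposited value plus 1 the log2 differences were −3.35 for BC023719 and −3.44 for H2-T10. Without strand information, sequence shared by both transcripts cannot be assigned to one of them, and the fall of BC023719 and that of H2-T10 are not separate observations. The antisense transcript that overlaps H2-T22, A930015D03Rik, stood at −0.89 (log2 fold change, SE 0.33) at an edgeR adjusted p of 0.317, opposite in sign to H2-T22.

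The remaining class I members were near the detection limit. H2-Q4, of the Q region, had 3, 0 and 1 counts in Gpr115-KO, against 13, 12 and 11 in WT, which edgeR fitted as −3.02 (log2 fold change, SE 0.78) at an adjusted p of 0.210, and it shares 496 exonic bases with the antisense transcript Gm11131. The pseudogenes H2-K2 and H2-Bl each had 1, 0 and 0 counts in Gpr115-KO, against 4, 4 and 6 (H2-K2) and 4, 7 and 6 (H2-Bl) in WT, too few to be tested. In all 3 of these genes the genotypes did not overlap, WT being higher. H2-M3, whose product presents N-formylated peptides, had 1.03, 1.07 and 2.20 CPM in Gpr115-KO, against 1.18, 0.341 and 0.407 CPM in WT (log2 fold change 1.12, SE 0.61, edgeR adjusted p = 0.482). H2-M5 (−0.40, SE 0.61) overlapped as well, as did H2-Q2 and H2-Q10, which had at most 7 counts in a library and were not tested.

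Summed over all 14 class I heavy chain members, the level was 130.0, 138 and 150.4 CPM in Gpr115-KO, against 147, 136 and 120.4 CPM in WT. The summed ranges overlapped, with means of 139 ± 10.3 CPM in Gpr115-KO and 135 ± 13.5 CPM in WT (SD, n = 3 each), while the makeup differed. The sum includes the pseudogenes H2-T10, H2-K2, H2-Bl and H2-T-ps, so it is not a level of coding heavy chain RNA. H2-T10 gave 0.505 CPM of the mean sum in Gpr115-KO and 15.1 CPM in WT, so the closeness of the means depends on counting it. H2-D1 and H2-K1 made up 62.2 CPM of the mean sum in Gpr115-KO and 98.4 CPM in WT, and H2-T24 and H2-T23, by their means, 44.0 and 17.6 CPM in Gpr115-KO against 8.28 and 2.82 CPM in WT. B2m, the light chain with which class I heavy chains pair, had 166, 186 and 229 CPM in Gpr115-KO, against 187, 159 and 175 CPM in WT. The genotypes overlapped for B2m (log2 fold change 0.16, SE 0.17, edgeR adjusted p = 0.755), and its sign turned to −0.01 when the trend with gene length was removed. In bulk tissue, fewer cells of a type and less RNA per cell cannot be told apart.

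**Figure D3:**
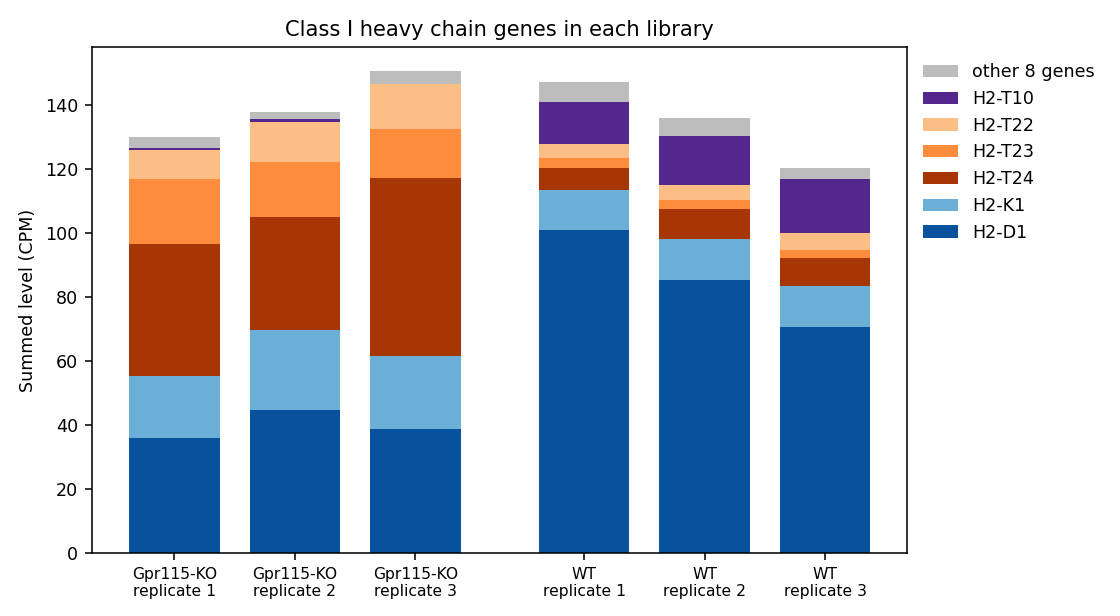
Level in CPM of the 14 class I heavy chain members, pseudogenes among them, stacked in each library. The Gpr115-KO libraries are on the left and the WT libraries on the right. The totals lie between 120.4 and 150.4 CPM in all 6 libraries, while the H2-D1 part is smaller and the H2-T24 and H2-T23 parts are larger in each Gpr115-KO library.

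Among the genes of peptide exchange on class II, the beta chains of H2-DM also ran in opposite directions. H2-DM is the chaperone that removes the invariant chain fragment from class II molecules, and the genes H2-DMb1 and H2-DMb2 both encode its beta chain. H2-DMb1 (ENSMUSG00000079547; chromosome 17, 34153072 to 34160230, plus strand) had 6.72, 5.88 and 10.4 CPM in Gpr115-KO, against 2.09, 1.82 and 2.24 CPM in WT (log2 fold change 1.90, SE 0.32, edgeR adjusted p = 0.0583). H2-DMb2 (ENSMUSG00000037548; 34143307 to 34151555, plus strand) had 3, 1 and 5 counts in Gpr115-KO, against 15, 10 and 13 in WT (log2 fold change −2.01, SE 0.60, edgeR adjusted p = 0.259). Neither passed over all genes, though the genotypes did not overlap in either, and H2-DMb1 was called by DESeq2, without a count filter and with the replicate number as a block, which called 0.450% of all genes. Their transcripts match at 95.7% identity over 1081 bases. In CPM, H2-DMb1 exceeded H2-DMb2 by 19.7, 55.0 and 22.8 times in Gpr115-KO and by 1.53, 1.60 and 1.69 times in WT. The pair's sum was 7.98 ± 2.57 CPM in Gpr115-KO and 3.32 ± 0.320 CPM in WT (SD, n = 3 each), again without overlap.

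The other class II genes were low and none passed. H2-DMa, the alpha chain of H2-DM, had 2.05, 3.10 and 3.38 CPM in Gpr115-KO, against 1.54, 2.05 and 2.03 CPM in WT (log2 fold change 0.61, SE 0.37, edgeR adjusted p = 0.541), with the genotypes touching but not crossing, and it shares 360 exonic bases with Brd2 on the opposite strand. H2-Ab1, the beta chain of the A molecule, had 1.60, 5.13 and 4.39 CPM in Gpr115-KO, against 1.72, 1.36 and 0.610 CPM in WT (1.58, SE 0.52, edgeR adjusted p = 0.283), and was called without a count filter only. Its partner chain H2-Aa had 1.82, 4.06 and 2.10 CPM in Gpr115-KO, against 3.08, 2.73 and 1.42 CPM in WT (0.14, SE 0.44), with a reversed sign without Gpr115-KO replicate 2 (−0.29) or WT replicate 3 (−0.13). H2-Eb1, the beta chain of the E molecule, had 5, 11 and 12 counts in Gpr115-KO, against 2, 0 and 3 in WT, too few for the test. H2-Ob, a chain of the H2-DM inhibitor, had 4, 2 and 2 counts in Gpr115-KO, against 2, 3 and 10 in WT.

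Cd74, the invariant chain gene on another chromosome, had 5.70, 10.05 and 3.57 CPM in Gpr115-KO, against 4.44, 3.30 and 2.85 CPM in WT. Replicate 2 of Gpr115-KO was the highest and replicate 3 lay within the WT range (log2 fold change 0.86, SE 0.39, edgeR adjusted p = 0.405). Ciita, the transactivator that switches on class II genes, had 2.62, 5.45 and 3.75 CPM in Gpr115-KO, against 3.99, 2.96 and 3.76 CPM in WT (0.14, SE 0.34, edgeR adjusted p = 0.900). Gpr115-KO replicate 2 was thus the highest library for Cd74, Ciita, H2-Ab1 and H2-Aa. Among markers of the cells that make class II, those of B cells and dendritic cells were low and those of macrophages were not. The 5 B cell genes summed to 1.14, 1.60 and 1.65 CPM in Gpr115-KO and 0.997, 1.82 and 0.407 CPM in WT, with Pax5 at 0 counts in every library. The 6 dendritic cell genes summed to 4.60 to 5.49 CPM in Gpr115-KO and 4.07 to 7.50 CPM in WT. Of these Zbtb46, expressed by endothelium too, gave 3.21 to 4.33 CPM in Gpr115-KO and 3.25 to 6.59 CPM in WT. Flt3 was nearly absent in both genotypes, with 0, 0 and 0 counts in Gpr115-KO and 2, 0 and 0 in WT. The 9 macrophage genes summed to 143, 174 and 202 CPM in Gpr115-KO and 145, 141 and 154 CPM in WT, and 0 of 9 passed in edgeR, with C1qa (0.82, SE 0.22, edgeR adjusted p = 0.223) and Lyz2 (0.48, SE 0.17, edgeR adjusted p = 0.296) at the smallest p. The part of these cells in the class II values was not tested.

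None of the transporter and loading genes of the H2 complex passed the test. Tap1 had 2.85, 6.52 and 5.94 CPM in Gpr115-KO, against 5.44, 4.66 and 3.66 CPM in WT (log2 fold change 0.16, SE 0.35), and its sign turned to −0.05 without Gpr115-KO replicate 2. Tap2 had 14.9, 10.05 and 15.5 CPM in Gpr115-KO, against 14.1, 9.77 and 11.0 CPM in WT (0.22, SE 0.24). Tapbp, encoding tapasin, which bridges class I chains to the transporter, had 152, 126 and 202 CPM in Gpr115-KO, against 175, 178 and 186 CPM in WT (−0.17, SE 0.19). The genotypes overlapped in all 3 of these genes. Tapbpl, a tapasin-related peptide editor on chromosome 6, had 8.77, 8.98 and 13.8 CPM in Gpr115-KO, against 12.1, 10.1 and 12.6 CPM in WT (−0.14, SE 0.24). It overlapped as well, and the edgeR adjusted p-values of the 4 genes lay between 0.755 and 0.888.

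Among the proteasome genes the inducible subunits encoded in the complex were set apart only in part. Psmb8 (ENSMUSG00000024338; chromosome 17, 34197721 to 34201454, plus strand), an inducible catalytic subunit, had 5.70, 8.76 and 7.77 CPM in Gpr115-KO, against 2.54, 2.84 and 2.74 CPM in WT. The genotypes did not overlap and the Gpr115-KO mean was 2.74 times the WT mean, and edgeR gave 1.45 (log2 fold change, SE 0.28) at an adjusted p of 0.103, a difference that DESeq2 and edgeR without a count filter called. An antisense transcript, Gm20496, shares 498 of its exonic bases and stood at 0.59 (SE 0.32, edgeR adjusted p = 0.480). Psmb9, an inducible subunit which shares 212 exonic bases with Tap1 on the opposite strand, had 2.05, 5.13 and 4.39 CPM in Gpr115-KO, against 2.54, 2.73 and 2.13 CPM in WT (0.65, SE 0.39, edgeR adjusted p = 0.528). The third inducible subunit, Psmb10 on chromosome 8, had 9.80, 14.4 and 14.8 CPM in Gpr115-KO, against 10.2, 10.6 and 9.55 CPM in WT (0.37, SE 0.22, edgeR adjusted p = 0.531). Both overlapped between genotypes.

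Of the 11 genes on other chromosomes, 10 overlapped between the genotypes. Psme1, a subunit of the proteasome activator PA28, had 19.6, 26.0 and 20.7 CPM in Gpr115-KO, against 17.7, 16.03 and 18.7 CPM in WT, the one gene among them without overlap (log2 fold change 0.34, SE 0.18, edgeR adjusted p = 0.478). Its partner subunit Psme2 had 74.7, 107 and 81.3 CPM in Gpr115-KO, against 78.7, 77.7 and 83.0 CPM in WT (0.13, SE 0.17), and has the near-identical copy Psme2b. Erap1, which trims peptides in the endoplasmic reticulum, had 10.3, 7.16 and 9.15 CPM in Gpr115-KO, against 8.61, 12.0 and 5.89 CPM in WT (0.00, SE 0.29). Psme2 and Erap1 overlapped between the genotypes.

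Cd1d1, which presents lipids to natural killer T cells, had 37.8, 20.5 and 40.5 CPM in Gpr115-KO, against 24.8, 37.2 and 35.0 CPM in WT (log2 fold change 0.03, SE 0.26). Mr1, which presents vitamin B metabolites to mucosal-associated invariant T cells, had 12.8, 8.34 and 11.6 CPM in Gpr115-KO, against 11.9, 10.7 and 9.55 CPM in WT (0.03, SE 0.23). Nlrc5, the transactivator of class I genes, had 0.798, 2.14 and 1.10 CPM in Gpr115-KO, against 0.816, 1.93 and 0.203 CPM in WT (0.47, SE 0.69, edgeR adjusted p = 0.824). The signs for Erap1, Cd1d1, Mr1, Ciita, Nlrc5 and Psme2 turned when single libraries were left out, and none of the 6 was past the threshold under an alternative that gave an adjusted p (DESeq2 gave none for Nlrc5).

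Set side by side, the members of the complex spread widely and those elsewhere did not. The sets also differed in level. Library medians were 2.45 to 5.50 CPM for tested members of the complex, 9.55 to 13.8 CPM elsewhere and 11.8 to 12.2 CPM over all tested genes. Genes with few counts scatter more on the log scale, and the part of this in the spread was not tested. The median absolute log2 fold change was 1.20 over the 20 tested members of the complex, 0.14 over the 11 elsewhere and 0.24 over all 16011 genes tested, and the median with sign was 0.41, 0.14 and 0.01 in the same order. BC023719, H2-T10, H2-DMb2 and H2-Q4 reached 10 counts in the WT libraries alone, so they entered the test through the genotype in which they were high. Requiring 10 counts in every library left 1 lower call in the complex, H2-D1, where 0.115% of all genes were called lower. Regardless of edgeR's count filter, genotypes did not overlap in 16 of the 27 members of the complex, 8 higher and 8 lower in Gpr115-KO. The same held for 1 of 11 elsewhere, and for 16.4% of all 20161 genes of the normalized table (8.10% higher and 8.32% lower). These counts are not free of a filter, since genes left out of the normalized values had at most 5 counts in a library. The untested members among the 16 were H2-K2, H2-Bl and H2-T-ps, above 5 counts in WT alone, and H2-Eb1, in Gpr115-KO alone. H2-Q1, lower in Gpr115-KO, and H2-Pa, higher, did not overlap either but were left out. Members of the complex share position, and several share sequence, so they were not treated as independent of each other, and the difference between both sets is given here as counts without a test.

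Other genes of the same stretch were examined too. The member starts span 3.35 Mb, from 33.92 to 37.27 Mb on chromosome 17, and 100 genes that are no members were tested within it. Of these 5 were called, Prrc2a higher and Vwa7, Sapcd1, Nrm and 1110038B12Rik lower, the names being looked up after their values were seen. Their libraries did not overlap for 39.0%, beside 17.5% of all tested genes (8.55% higher and 8.99% lower). On the rest of chromosome 17, 8 of 604 tested genes were called (1.32%), and on all other chromosomes 6 of 15287 (0.0392%). The median absolute log2 fold change was 0.37 for the other genes of the stretch and 0.24 for the rest of chromosome 17.

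**Figure D4:**
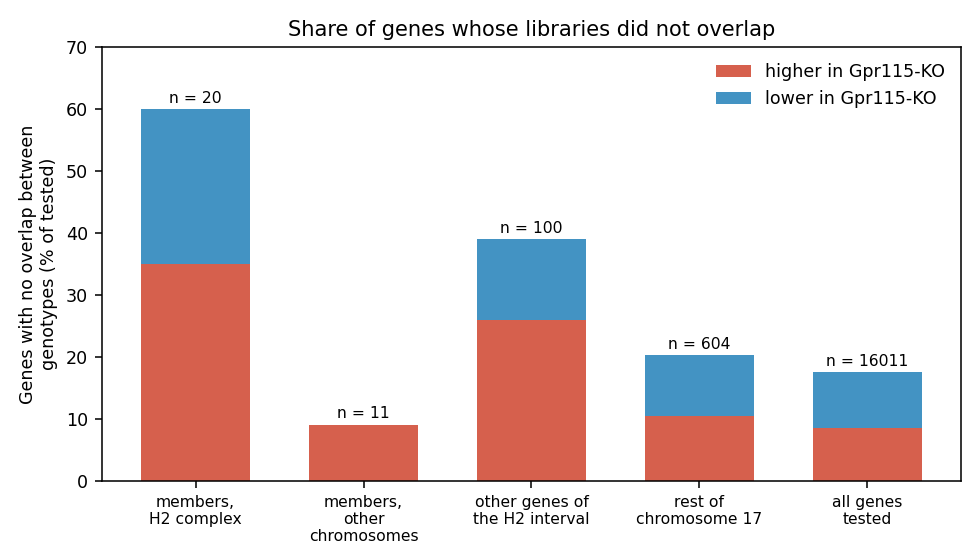
Percent of tested genes whose Gpr115-KO and WT libraries did not overlap, split by direction, for the members in the H2 complex, the members on other chromosomes, the other genes of the H2 stretch, the rest of chromosome 17 and all genes tested, with the number tested above each bar. The share is 60.0% for the 20 members of the complex, 39.0% for its other genes, 9.09% for the 11 members elsewhere and 17.5% for all genes.

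Further genes of the presentation routes showed no call in edgeR. Of 6 genes for import, folding and loading in the endoplasmic reticulum (Calr, Canx, Pdia3, Hspa5, Sec61a1 and Sec61b) none passed, at log2 fold changes of −0.26 to 0.35. Calr (0.35, SE 0.18, edgeR adjusted p = 0.461) and Canx (−0.26, SE 0.19, edgeR adjusted p = 0.611), which hold the folding heavy chain, had the smallest p. Among 5 peptide-trimming enzymes 1 reached an unadjusted p under 0.05, Npepps (−0.51, SE 0.21, edgeR adjusted p = 0.360), followed by Tpp2 (−0.24, SE 0.16). The 6 further proteasome genes (Psmb5, Psmb6, Psmb7, Psme3, Psme4 and Pomp) ranged from −0.31 to 0.28 with none under an unadjusted p of 0.05 in edgeR. In the class II route 0 of 9 tested genes passed and 1 had an unadjusted p under 0.05, the endosomal protease Ctss (0.64, SE 0.27, edgeR adjusted p = 0.370), ahead of the class II promoter factor Rfxap (0.51, SE 0.26). Of 5 tested class I-like genes outside the complex 0 passed and 0 had an unadjusted p under 0.05, with Hfe, a regulator of iron uptake, at 0.53 (SE 0.27).

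Interferon raises class I transcription, so genes of the interferon response were given beside the members. Of 26 tested, 0 passed and 2 had an unadjusted p under 0.05 in edgeR. Their median log2 fold change was 0.08, against 0.01 over all genes. Rsad2, an antiviral enzyme gene, had 5.13, 9.30 and 4.21 CPM in Gpr115-KO, against 0.907, 2.05 and 0.610 CPM in WT, without overlap (log2 fold change 2.40, SE 0.48, edgeR adjusted p = 0.103). Stat2, a signal transducer of type I interferon, lay the other way (−0.66, SE 0.28, edgeR adjusted p = 0.364). Irf1, a transcription factor that acts on class I promoters, stood at −0.20 (SE 0.21, edgeR adjusted p = 0.743). The 4 pan-leukocyte genes summed to 37.0, 52.8 and 65.6 CPM in Gpr115-KO and 49.96, 53.99 and 44.6 CPM in WT, and the 7 T and natural killer cell genes to 3.38 to 4.33 CPM in Gpr115-KO and 2.13 to 3.45 CPM in WT.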

How the data were processed

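Per the labels' protocols, TRIzol-extracted RNA went into Nextera XT libraries, a kit that keeps no strand, read as pairs on a HiSeq1500. Per the submitters' processing notes, the tools were STAR (2.5.2a), limma, edgeR and DESeq2, on GRCm38 (mm10). Which counter and annotation release were used was not given in the sources used here. As deposited by the authors, the count table holds raw counts for 48709 gene rows and 15 transgene rows, and the transgene rows were left out. The deposited normalized signal is CPM scaled by TMM. Each column is a multiple of the counts: 100% of its values came back as whole reads within 0.01 reads and equal to the count table, and edgeR on those reads called the same number of genes, 24. Positions, lengths and overlaps are from GENCODE M21.

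Counts were tested with edgeR 4.0.16 (R 4.3.3): filterByExpr (minimum count 10, minimum total 15) kept 16011 genes, libraries were scaled by TMM, and a robust quasi-likelihood fit with genotype alone was tested two-sided. P-values were adjusted by Benjamini-Hochberg over all tested genes, with calls at 0.05. Standard errors (SE) were derived from the F statistic, as |log2 fold change|/√F. CPM carry no pseudocount. Library pairs differed far beyond sampling noise (chi-square per degree of freedom 16.1 to 89.2). Copies were sought with blastn 2.17.0 at 95% identity over 150 bases on chromosome 17, or 500 bases elsewhere. Alternatives were DESeq2 1.42.0, limma 3.58.1, other scalings, filters and pseudocounts, a replicate block and each library left out; edgeR on the recovered reads and removal of the trend with gene length were added after the data were seen. Every member was named; all libraries are given for called members, for a list set by name and for most others, and H2-M5, H2-Q2 and H2-Q10 are summarised. The members and lists were chosen with earlier results of these data known.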

Additional observations from a re-analysis of the deposited data

How the results depend on the processing

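The calls of H2-T23 and H2-T24 (2 higher members of the H2 complex) held in each alternative, and the 11 members on other chromosomes gave 0 calls in each. Counts moved by over 1.5 times in 3 cases. Higher members of the complex numbered 7 without a count filter (0.463% of all genes then called higher) and 6 in the DESeq2 Wald test (0.406%), against 2. Lower members numbered 1 where 10 counts were required in every library, since BC023719 and H2-T10 were then not tested, against 3. With single libraries left out there were 2 to 2 higher and 2 to 3 lower members, and the lost call was that of H2-D1. The replicate block gave 3 higher and 3 lower members and called 72 genes in all against 24; same-numbered libraries correlated at 0.27, 0.0344 and −0.0725 in their deviations from the group means, so the replicate number was not taken to pair them.

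Over single members 504 of 545 recomputed values with an adjusted p kept their sign and side of the threshold; DESeq2 gave no adjusted p for H2-M3, H2-M5, H2-Q4, H2-DMb2 and Nlrc5. Signs turned in 22, all of uncalled members. With single libraries left out, the log2 fold change ran from −0.22 to 0.28 for Erap1, −0.16 to 0.36 for Ciita, −0.10 to 0.19 for Mr1, −0.15 to 0.28 for Cd1d1, −0.29 to 0.36 for H2-Aa, −0.05 to 0.44 for Tap1, −0.02 to 1.35 for Nlrc5 and −0.03 to 0.24 for Psme2. Cd1d1 also turned with limma-voom (−0.00), with limma-trend at pseudocounts of 1 (−0.01) and 0.1 (−0.02) and with the length trend removed (−0.00), and B2m with the length trend removed (−0.01). The causes were not tested. Depth limits the class II chains, which had at most 48 counts in a library, and H2-Q4, with at most 13.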

Other observations

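Some genes that overlap or resemble members had values of their own. Brd2, encoding a bromodomain protein and overlapping H2-DMa on the opposite strand, averaged 88.7 CPM in Gpr115-KO and 40.5 CPM in WT, and edgeR gave 1.13 (log2 fold change, SE 0.20) at an adjusted p of 0.0697. Gm8909, a class I-like gene with stretches near-identical to H2-D1, H2-K1 and H2-T23, averaged 0.0760 CPM in Gpr115-KO and 1.58 CPM in WT (−4.27, SE 0.85, edgeR adjusted p = 0.103). Of the rule's symbols without a row in the normalized table, H2-Q1 had 0, 0 and 0 counts in Gpr115-KO and 4, 1 and 2 in WT, and H2-Q7 had 0, 3 and 2 counts in Gpr115-KO and 1, 0 and 2 in WT.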
